A study of Drosophila melanogaster with 3 samples.

Results

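The genes described here encode the subunits of the proteasome and the paralogs of those subunits, as measured in Drosophila melanogaster ovaries with an sva53 mutant germ line against ovaries with an sva53/+ germ line. They were chosen by symbol: every feature with exactly one gene symbol in the platform annotation was taken where that symbol named an alpha or beta ring subunit (Prosalpha, Prosbeta), a regulatory ATPase (Rpt) or a regulatory non-ATPase (Rpn). The rule found 38 genes of 10805 named genes on the array, with 55 features among them. Paralogs, recognised by a suffix of T or R with or without a number, made up 13 of the 38, and canonical subunits made up 25. The canonical set held 11 genes of the 20S core, 7 of the base of the regulatory particle and 7 of its lid. A further 10 subunit genes or paralogs of the RefSeq gene table (Prosalpha1, Prosalpha1R, Prosalpha3T, Prosbeta1, Prosbeta6, Rpn9, Rpn10, Rpt1, Rpt6 and Rpt6R) had no feature under that symbol alone and were not analysed here.

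The mutant channel (Cy3) held RNA of ovaries in which the germ cells descended from pole cells of embryos made by germline clones homozygous for sva53[M1], produced with the FLP/FRT/DFS system. In the control channel (Cy5) they descended from pole cells of sva53/+ embryos. Both kinds of pole cell had been transplanted into hosts laid by osk homozygous females, so that follicle cells and the rest of the soma belonged to the host on either side. Flies were about 7 days old, each of the 3 mutant samples was a separate experiment with 2 ovary pairs combined, and 1 control RNA from 3 pairs of ovaries was hybridised to all 3 arrays. All values given are log2 of the mutant signal divided by the control signal. In such bulk samples a difference in the number of cells of a type cannot be told apart from a difference in RNA per cell. The labels give the dyes but not the numerator, so the direction is likely, not stated: it rests on the habit of this scanner software of writing red over green. With the other numerator every sign below turns.

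The proteasome is the main ATP-dependent protease of eukaryotic cells and degrades proteins tagged with ubiquitin. Its 20S core is a barrel of stacked rings, with outer rings of alpha subunits that gate the entrance and inner rings of beta subunits, some of which carry the proteolytic sites. The 19S regulatory particle sits on the barrel: its base, a ring of AAA+ ATPases (Rpt) with large Rpn scaffolds, unfolds substrates, and its lid removes ubiquitin. In Drosophila many subunits have a duplicate gene, and several of these duplicates are known to be expressed mainly in the male germ line, where they replace the canonical subunit during sperm formation. Testes were not measured here, and the deposited ratios carry no signal intensity, so whether a paralog was detected above background in these ovaries is not known.

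Across the whole array 2135 of 15415 features (13.9%) passed limma's test at a Benjamini-Hochberg adjusted p under 0.05, 1021 (6.62%) higher and 1114 (7.23%) lower in the mutant. The median ratio over all features lay between -0.01 and 0.00 on each array. Of the marker lists read here, eggshell genes had the widest range of medians between pools. The 6 measured of 16 listed vitelline membrane and chorion genes, made by follicle cells, had medians of -2.87, -0.03 and -0.04 on arrays 1, 2 and 3. Single genes ran from -0.89 (Cp16) to 0.70 (Cp7Fc) on array 2, and from -1.33 (Fcp3C) to 0.81 (Cp38) on array 3. Of the 6, 0 were called and 0 had an unadjusted p under 0.05 in limma. Each array carried 1 mutant pool, so a difference of a pool cannot be told apart from a difference of its array. The control RNA was shared, so its own deviation enters all 3 ratios of a gene and the arrays are not independent in sign.

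Canonical subunit genes lay mostly above 0 in sva53 ovaries, by small amounts. Of the 25, 4 rose (Rpn2, Prosalpha2, Rpt5 and Rpn7), 0 fell and 21 did not pass, and 13 (52.0%) had an unadjusted p under 0.05 with limma, beside 36.3% of all features. The 4 are 16.0% of the canonical genes, beside 6.62% of all features called higher. The ratio was above 0 on all 3 arrays in 19 of the 25 genes (76.0%), against 28.9% of all features, and below 0 on all 3 in 1, Prosbeta5. The medians over the 25 genes were 0.32, 0.31 and 0.09 on arrays 1, 2 and 3, and the mean log2 ratios of single genes ran from -0.11 to 0.55. With either of arrays 1, 2 or 3 left out, limma called 0 of the 25, as it called 0 features of the whole table, while 11, 4 and 22 of the 38 genes had an unadjusted p under 0.05. These are 28.9%, 10.5% and 57.9% of the 38 genes, paralogs included, beside 30.6%, 21.3% and 27.9% of all features. With all 3 arrays the share of the 38 was 39.5%, beside 36.3%. When an array was left out, it exceeded that of the table only without array 3. Such shares were not taken for the 25 canonical genes alone.

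**Figure D1:**
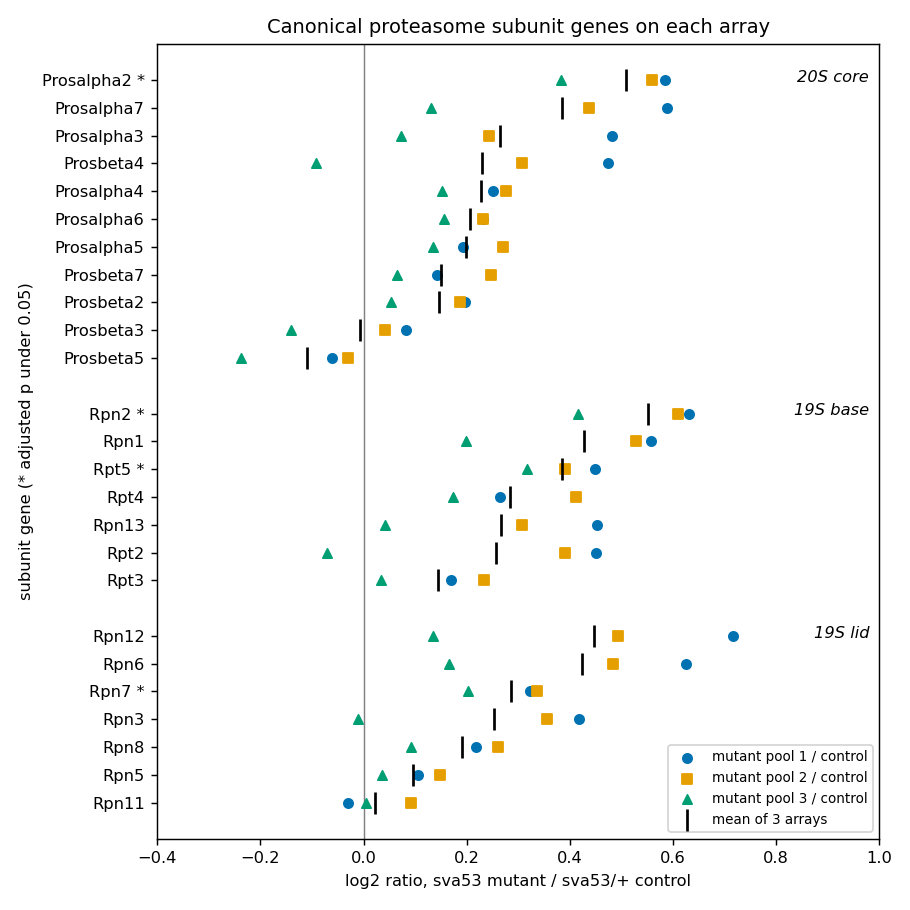
Log2 ratio of sva53 mutant over sva53/+ control (horizontal axis) of the 25 canonical subunit genes, grouped as 20S core, 19S base and 19S lid; points are the 3 arrays, bars their mean, and an asterisk marks an adjusted p under 0.05 (limma). The third mutant pool gave the lowest of the 3 ratios in 24 of 25 genes, and means run from -0.11 (Prosbeta5) to 0.55 (Rpn2).

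In the 20S core, the alpha ring genes were above 0 throughout and the beta ring genes were not, a difference that was not tested. All 6 measured alpha genes had a positive ratio on every array, with a median of 0.37, 0.27 and 0.14 on arrays 1, 2 and 3. Of them 1 passed (16.7%, beside 6.62% of all features called higher). Prosalpha2 read 0.58, 0.56 and 0.38, a mean of 0.51 ± 0.11 (SD, n = 3; 1.42-fold) with a limma adjusted p of 0.035, and rests on 1 feature. Prosalpha7, measured by 3 features, read 0.59, 0.44 and 0.13 (0.39 ± 0.23, limma adjusted p 0.0885, not called). Its features were close to each other, with means of 0.36, 0.36 and 0.43. Prosalpha3 read 0.48, 0.24 and 0.07. Prosalpha4 (0.25, 0.28 and 0.15), Prosalpha6 (0.23, 0.23 and 0.16) and Prosalpha5 (0.19, 0.27 and 0.13) were the steadiest, with SDs of 0.07, 0.04 and 0.07, and their adjusted p lay at 0.0663, 0.0676 and 0.0839 with limma.

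None of the 5 measured beta ring genes passed, and 0 had an unadjusted p under 0.05 with limma. Their medians were 0.14, 0.19 and -0.09 on arrays 1, 2 and 3. Prosbeta4 had the highest mean of these and the widest spread, reading 0.47, 0.31 and -0.09. Prosbeta7 read 0.14, 0.25 and 0.06. Of the subunits that carry proteolytic sites, Prosbeta2, with the trypsin-like activity, read 0.20, 0.19 and 0.05 (0.15 ± 0.08, adjusted p 0.158 with limma). Prosbeta5, with the chymotrypsin-like activity, had the lowest mean of all canonical genes, at -0.06, -0.03 and -0.24 (-0.11 ± 0.11, adjusted p 0.3 with limma). Its 2 features disagreed: one read -0.34, -0.23 and -0.30, the other 0.22, 0.17 and -0.18. With the former, which had the smaller SD, Prosbeta5 was called lower (-0.29, adjusted p 0.0325 with limma). Prosbeta3 had features on either side of 0 as well, with means of 0.19 and -0.20, and an average of 0.08, 0.04 and -0.14 over arrays 1, 2 and 3.

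The base had the highest median of the canonical classes on each array, at 0.45, 0.39 and 0.17. Of its 7 genes 2 rose (28.6%, beside 6.62% of all features called higher). Rpn2, the scaffold on which the ubiquitin receptor Rpn13 docks, read 0.63, 0.61 and 0.41, the highest mean of the 38 genes at 0.55 ± 0.12 (SD, n = 3; 1.47-fold, adjusted p 0.0346 with limma). Its 2 features gave means of 0.58 and 0.52, and both passed when each feature was tested on its own. Rpt5, an ATPase of the ring, read 0.45, 0.39 and 0.32 (0.38 ± 0.07, 1.3-fold with a 95% interval of 0.24 to 0.53 on the log2 scale, adjusted p 0.0367 with limma). The 2 features of Rpt5 had means of 0.45 and 0.32, and the latter did not pass on its own (adjusted p 0.0562 with limma). Rpn2 and Rpt5 were positive in every pool with little spread, and the third pool was again the lowest for each.

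Rpn1, the scaffold that binds shuttle proteins carrying ubiquitinated substrates, read 0.56, 0.53 and 0.20 and stood just outside the threshold (0.43 ± 0.20, adjusted p 0.061 with limma). Rpn13 read 0.45, 0.31 and 0.04. Among the other ATPases, Rpt4 read 0.26, 0.41 and 0.17 (adjusted p 0.0684 with limma). The lowest of the base were Rpt2, at 0.45, 0.39 and -0.07, and Rpt3, at 0.17, 0.23 and 0.03. Rpt2 was close to Rpt5 on arrays 1 and 2 and apart from it only on array 3.

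In the lid, 1 of 7 genes rose (14.3%, beside 6.62% of all features called higher), so the share rests on a single call. The means ran from 0.02 to 0.45. Rpn12 had the highest mean and also the widest spread, at 0.72, 0.49 and 0.13 (0.45 ± 0.29, adjusted p 0.0957 with limma). Rpn6, which braces the lid against the core, read 0.62, 0.48 and 0.16 (0.42 ± 0.24, adjusted p 0.0764 with limma). Rpn7 had a smaller mean but read evenly, at 0.32, 0.34 and 0.20, and was the member that passed (0.29 ± 0.07, 1.22-fold, adjusted p 0.0495 with limma). That p is close to the threshold, with a robust prior it was 0.0521, and the gene was measured by 1 feature. Rpn11, the deubiquitinase of the lid, read -0.03, 0.09 and 0.00, so its ratio was near 0 in every pool (adjusted p 0.792 with limma). Rpn5, another structural subunit, read 0.11, 0.15 and 0.04. Rpn8, the partner of Rpn11, read 0.22, 0.26 and 0.09, from 2 features with means of 0.30 and 0.08. Rpn3 read 0.42, 0.36 and -0.01.

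The third pool was lower than the other two in most canonical genes. Array 3 gave the lowest of the 3 ratios in 24 of the 25 canonical genes (96.0%), against 37.2% of all features; Rpn11 was the exception. Array 3 was also the lowest in 20 of 24 other genes of the ubiquitin-proteasome pathway (83.3%). Pools 1 and 2 were close to each other in median (0.32 and 0.31), although their eggshell medians (-2.87 and -0.03) were far apart. Whether the eggshell difference has a part in the proteasome values of pool 1 was not tested. Without array 1 the canonical median was 0.20, without array 2 it was 0.21 and without array 3 it was 0.32. On the arrays left in each of those cases, 20, 19 and 23 of the 25 genes were above 0 throughout, beside 35.6%, 34.3% and 36.3% of all features.

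Among the 13 paralogs 1 passed the test. Rpt4R fell, 0 rose and 12 did not pass, and 2 (15.4%) had an unadjusted p under 0.05 with limma, beside 36.3% of all features. That 1 gene is 7.69% of the paralogs, beside 7.23% of all features called lower. The ratio was above 0 on all arrays in 3 paralogs (23.1%, beside 28.9% of all features) and below 0 on all arrays in 2 (15.4%, beside 29.9%). The mean of the array medians was -0.05 while the median of the gene means was 0.04, so no direction can be given for the group. Without array 1 the count below 0 on both remaining arrays was 7 of 13 (53.8%), beside 38.1% of all features. Without array 2 it was 2 (15.4%, beside 34.8%), and without array 3 it was 3 (23.1%, beside 37.5%).

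Rpt4R, a paralog of the ATPase gene Rpt4, read -1.33, -1.27 and -1.71 on arrays 1, 2 and 3. All 3 pools were thus far below 0, and the lowest was the third. The mean was -1.44 ± 0.24 (SD, n = 3; 2.71-fold lower in the mutant, 95% interval -1.74 to -1.13, adjusted p 0.0319 with limma), and it rests on 1 feature. Only 53 of the 15415 features, Rpt4R included, had a mean at or below that value. The next lowest paralog was Prosbeta5R2, a paralog of the chymotrypsin-like subunit gene, at -0.65, -0.72 and -0.14 (-0.51 ± 0.31, adjusted p 0.0864 with limma). It was below 0 in every pool, but the third was much nearer to 0 than the others. Array weights gave array 2 a weight of 3.42 against 0.438 and 0.666 for arrays 1 and 3. With them, Prosbeta5R2 and Prosbeta2R1 were also called lower, at -0.63 and -0.39 (adjusted p 0.022 and 0.0348 with limma). That made 3 of 13 paralogs lower, in a setting that called 2935 of 15415 features lower. There 50.9% of all features had an unadjusted p under 0.05 with limma, beside 36.3% without weights.

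Other paralogs changed sign between pools. Rpn12R read -0.52, -0.60 and 0.12, and Prosbeta2R1, a paralog of the trypsin-like subunit gene, read 0.08, -0.44 and -0.45. Prosbeta5R1 had the widest spread of the 38 genes, at 1.24, -0.14 and -0.16, so its mean of 0.31 rests on the first pool. Rpn13R resembled it on a smaller scale, at 0.40, -0.02 and -0.02. Prosalpha4T1 read 0.05, -0.05 and -0.16, and Prosbeta4R2 read 0.03, -0.22 and -0.17.

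The paralogs above 0 on every array were Prosalpha6T, Rpt3R and Prosbeta4R1. Prosalpha6T, which in Drosophila males is needed for sperm formation, read 0.47, 0.27 and 0.01 (0.25 ± 0.23, adjusted p 0.182 with limma). Rpt3R read 0.02, 0.25 and 0.01, with features at 0.23 and -0.04, and Prosbeta4R1 read 0.02, 0.12 and 0.01. Both were close to 0 on arrays 1 and 3. Prosbeta4R1 and Prosbeta4R2 flank the same gene, Or23a, in the RefSeq gene table.

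Averages hid a conflict between features in some paralogs. Prosbeta2R2 averaged 0.11, 0.18 and -0.17, but one of its 2 features read -0.51, -0.47 and -0.26 and the other 0.74, 0.83 and -0.08. The feature of smaller SD alone would call Prosbeta2R2 lower (-0.41, adjusted p 0.0358 with limma), against an average of 0.04. Of the 2 features of Prosalpha4T2, one was exactly 0 on all 3 arrays, a value that may stand for a ratio not measured, and the other read 0.56, -0.08 and 0.04. These made up the only exact zeros among the 55 features. In all, 4 of the 16 genes with more than one feature had feature means on both sides of 0: Prosbeta3 and Prosbeta5 of 12 canonical genes, and Prosbeta2R2 and Rpt3R of 4 paralogs.

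**Figure D2:**
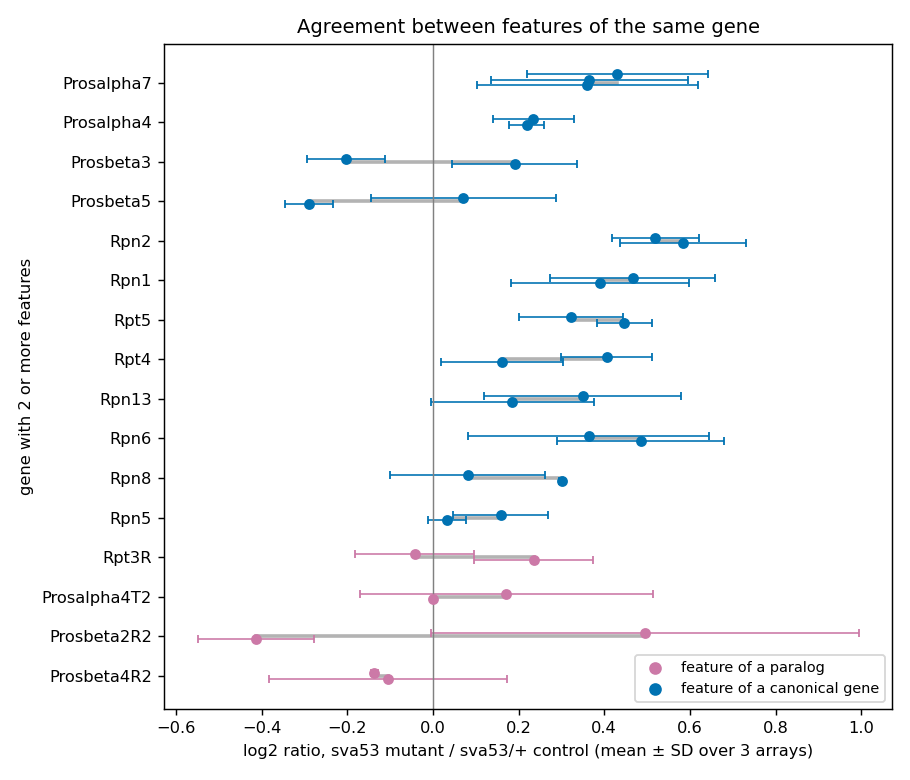
Mean log2 ratio of sva53 mutant over sva53/+ control of each feature (points; whiskers are the SD over 3 arrays) for the 16 genes with 2 or more features, paralogs in pink and canonical genes in blue; grey bars join features of 1 gene. Prosbeta2R2, with features at -0.41 and 0.50, spans the widest range, while the features of Rpn2 and Prosalpha7 lie close together.

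Each paralog was then set against its canonical gene on the same array, as paralog minus parent, which gave 13 pairs. The paralog had the lower mean ratio in 11 of 13 pairs, and was lower on all 3 arrays in 7, higher on all 3 in 0 and mixed in 6. The pairs are not independent, since Prosalpha4, Prosbeta2, Prosbeta4 and Prosbeta5 each recur as a parent. The parents are canonical genes, of which 76.0% were above 0 on all arrays, so a paralog near 0 also gives a negative difference. No share over other gene pairs was taken for comparison. The median difference was -0.18. On the arrays, the paralog median minus the canonical median was -0.27, -0.36 and -0.24 (-0.29 ± 0.06, SD, n = 3). An exact sign-flip permutation test (2-sided) over 3 arrays cannot give a p below 0.25, which becomes 0.464 after Benjamini-Hochberg adjustment over the 13 pairs, so no pair could pass. The difference alone shows unequal change and does not show which of the pair changed. That can be read only from each gene's own ratio to the control.

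The pair of Rpt4R and Rpt4 stood furthest apart, by -1.60, -1.68 and -1.88 (-1.72 ± 0.15, exact permutation p 0.25, the smallest possible). Rpt4R was far below 0 in each pool while Rpt4 was above 0 in each. Rpn12R lay below Rpn12 by -1.24, -1.10 and -0.02, so the third pool showed almost none of the gap of the others. Prosalpha4T1 lay below Prosalpha4 by a steady -0.20, -0.32 and -0.31. Prosbeta2R1 lay below Prosbeta2 by -0.12, -0.62 and -0.50, and Prosbeta4R2 below Prosbeta4 by -0.44, -0.53 and -0.08. Rpn13R and Prosbeta2R2 were also below their parents on every array, by means of -0.15 and -0.10. The pairs in which the paralog had the higher mean were Prosalpha6T with Prosalpha6 (0.04 ± 0.19) and Prosbeta5R1 with Prosbeta5 (0.42 ± 0.76), and in both the sign differed between arrays. Probe sequences were not used here, so signal that a paralog's feature may take from its parent's transcript cannot be told apart.

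**Figure D3:**
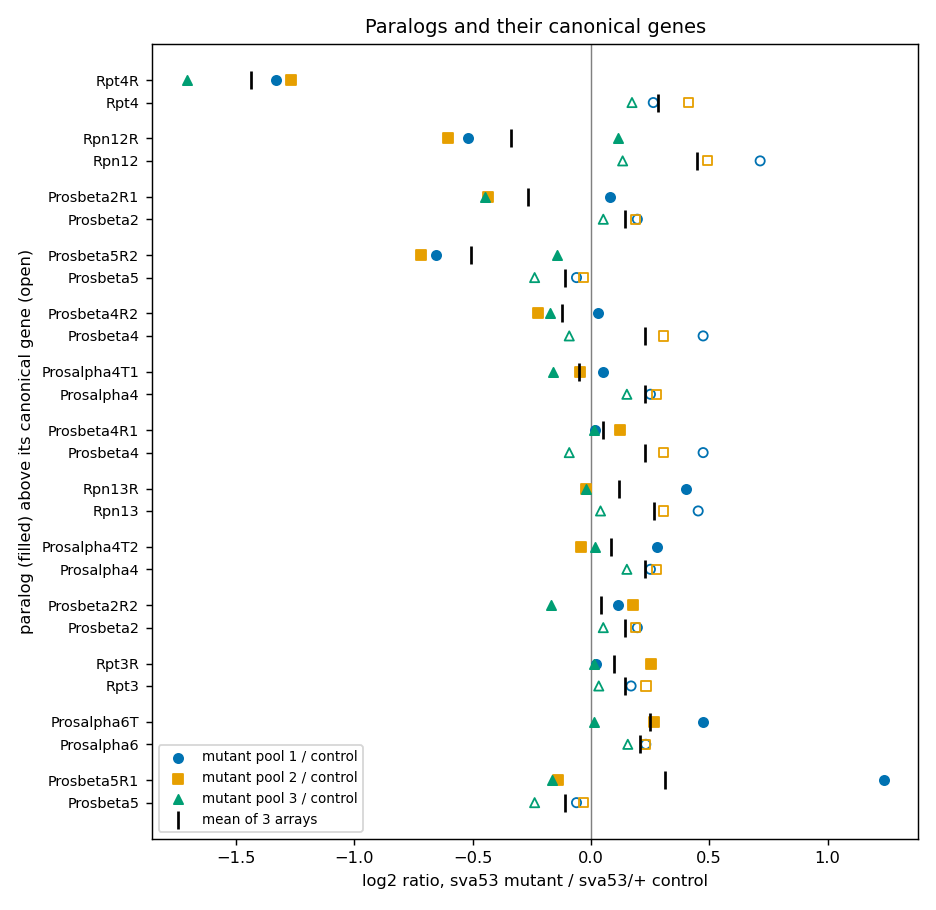
Log2 ratio of sva53 mutant over sva53/+ control on each array for the 13 paralogs (filled) and, below each, its canonical gene (open), sorted by the paralog minus parent difference; bars are means of 3 arrays. Rpt4R (-1.33, -1.27 and -1.71) is the paralog separated from both 0 and its parent, and Prosbeta5R1 is high on the first array alone (1.24).

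Genes typical of the male germ line, where such paralogs are known to be used, were read beside them. Of 20 measured, 6 fell (topi, dj, Mst87F, S-Lap2, S-Lap7 and S-Lap8), 0 rose, and 13 were below 0 on all arrays, with list medians of -0.27, -0.30 and -0.24. These are 30.0% called lower and 65.0% below 0 on all arrays, beside 7.23% and 29.9% of all features. The lists were chosen with earlier results of these data known, so these shares are description and not independent evidence. S-Lap2, S-Lap7 and S-Lap8 also belong to the same gene family. Of the 13 paralogs, 7.69% were called lower and 15.4% lay below 0 on all arrays, smaller shares than those of this list. Among the 20 male germ line genes, 4 had a mean above 0. S-Lap2, a sperm leucyl-aminopeptidase gene, read -1.44, -1.29 and -1.69, close to the single paralog Rpt4R in each pool. Falls of that size were not limited to this list, since Pepck1 of the fat body list read -1.64, -1.74 and -2.02. Among 10 female germ line genes 1 fell, bgcn (-1.80, -1.27 and -1.24), and 0 rose, with list medians of -0.15, 0.02 and 0.07. Lists of hemocyte (0 of 6 called, 0 with an unadjusted p under 0.05 in limma), muscle (0 of 9, and 2 unadjusted), fat body (2 of 6 lower) and midgut genes (1 of 13 higher, 3 lower) had medians on array 1 of -0.22, -0.06, -0.62 and -0.11. Their medians on array 2 were 0.21, 0.38, 0.17 and -0.12, and on array 3 they were 0.11, 0.20, -0.21 and -0.13. The 6.62% of all features called higher and the 7.23% called lower apply to each of these lists. Called lower were 33.3% of the fat body and 23.1% of the midgut genes, so a raised share was not particular to the male list. What part these lists have in the proteasome values was not tested.

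Of 24 measured genes elsewhere in the ubiquitin-proteasome pathway, 3 rose, 2 fell and 19 did not pass, and 11 (45.8%) had an unadjusted p under 0.05 with limma, beside 36.3% of all features. The calls are 12.5% higher and 8.33% lower, beside 6.62% and 7.23% of all features, and the median of the means was 0.09. TER94, the p97-type ATPase that pulls ubiquitinated proteins out of complexes and hands them to the proteasome, read 0.66, 0.70 and 0.45 (0.61 ± 0.14, SD, n = 3, adjusted p 0.0346 with limma). Its cofactor gene Npl4 read 0.46, 0.37 and 0.16 (adjusted p 0.0675, not called by limma), and p47, another cofactor, read 0.09, 0.02 and -0.15.

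Among 9 genes for assembly, shuttling and regulation of the proteasome, 2 rose (22.2%) and 1 fell (11.1%), beside 6.62% and 7.23% of all features. Rad23, a shuttle that brings ubiquitinated proteins to the regulatory particle, read 0.45, 0.41 and 0.29 (0.38 ± 0.09, adjusted p 0.0382 with limma). The F-box gene ntc, which in Drosophila males is needed for the final steps of sperm formation, read 0.93, 0.52 and 0.48 (0.64 ± 0.25, adjusted p 0.045 with limma). REG, the PA28-gamma type activator that opens the core without ubiquitin or ATP, read -0.28, -0.29 and -0.43 (-0.33 ± 0.08, adjusted p 0.0431 with limma). REG was below 0 in every pool, on the other side of 0 from Rad23 and ntc. Rad23 and ntc were measured by 1 feature each, and REG by 2.

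The remaining regulators did not pass. PI31, a protein that binds the core and regulates its activity, read 0.46, 0.18 and -0.002, and Usp14, a deubiquitinase on the base, read 0.55, 0.38 and 0.01. Both were highest in the first pool and near 0 in the third. Uch-L5, the deubiquitinase bound through Rpn13, read 0.20, 0.21 and 0.04, and rngo, of the Ddi1 shuttle family, read 0.35, 0.24 and 0.20 (adjusted p 0.0572 with limma). Pomp, the maturation factor of the core, read -0.002, 0.08 and 0.02, from features with means of 0.20 and -0.14. CG9588 read 0.34, 0.13 and 0.09.

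No ubiquitin gene or conjugating enzyme gene passed, and 2 of 3 and 2 of 5 had an unadjusted p under 0.05 with limma, a cut that 36.3% of all features reached. The polyubiquitin gene Ubi-p63E read 0.14, 0.14 and 0.10, from features at -0.02, 0.03 and 0.37. The genes that encode ubiquitin fused to a ribosomal protein lay on the other side of 0, RpL40 at -0.22, -0.25 and -0.37 (adjusted p 0.0527 with limma) and RpS27A at -0.13, -0.17 and -0.28. Of 5 conjugating enzyme genes, ben had the smallest unadjusted p and read -0.21, -0.18 and -0.20 (adjusted p 0.0667 with limma), but 1 of its 3 features was at -0.72 and the others at 0.00 and 0.13.

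In the Cnc pathway, named for a bZIP factor of the family that activates proteasome genes in animals, 1 of 4 genes fell. That is 25%, beside 7.23% of all features called lower, and rests on a single call. The gene for the small Maf partner of Cnc, maf-S, read -0.25, -0.29 and -0.45 (-0.33 ± 0.11, adjusted p 0.0495 with limma, 0.0522 with a robust prior and 0.0548 with scaled arrays). cnc read 0.12, 0.14 and 0.11, Keap1, the gene for its cytoplasmic inhibitor, read -0.07, -0.06 and -0.08, and Pngl read 0.17, 0.00 and -0.06, and these did not pass. The 2 features of Keap1 lay on opposite sides of 0, with means of -0.19 and 0.06. Those of cnc had means of -0.01, 0.22 and 0.15. Thus maf-S, measured by 1 feature, lay below 0 in each pool while the canonical subunit median lay above 0 in each.

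**Figure D4:**
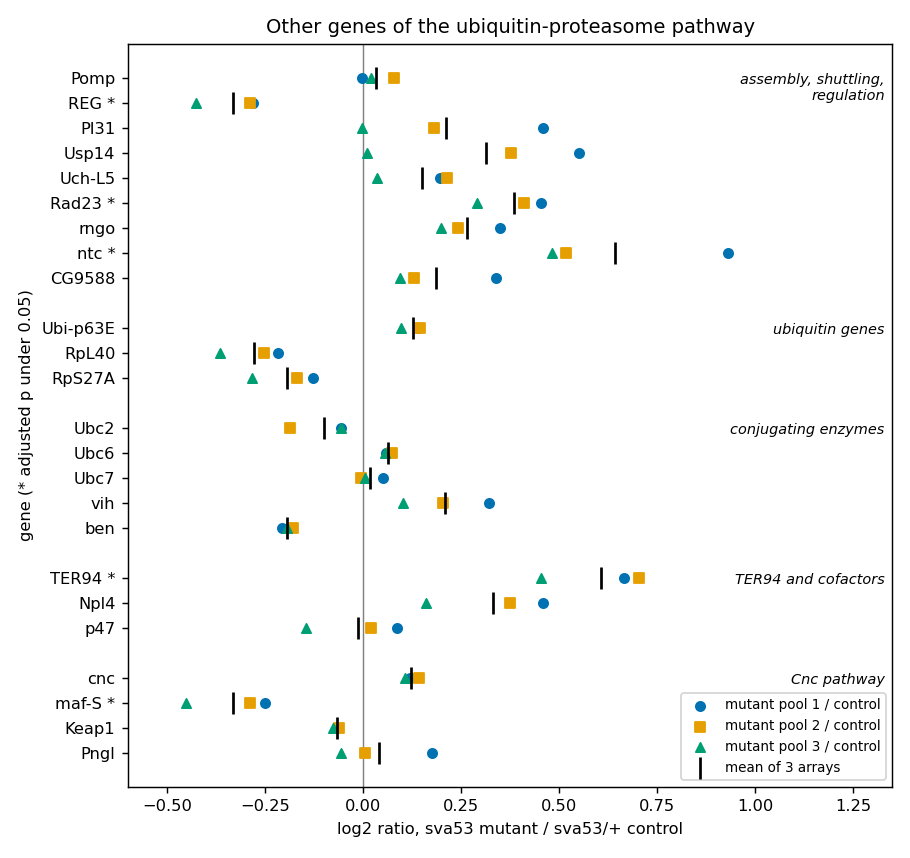
Log2 ratio of sva53 mutant over sva53/+ control of 24 other genes of the ubiquitin-proteasome pathway, by group; points are the 3 arrays, bars their mean, and an asterisk marks an adjusted p under 0.05 (limma). TER94, ntc and Rad23 lie above 0 and REG and maf-S below 0 in all 3 pools.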

How the data were processed

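RNA was measured on 3 Agilent arrays with 2 colours. The authors deposited 1 log10 ratio per feature and array for 22575 features, made with Agilent Feature Extraction 7.1 per the submitters' processing notes. Per the labels, 100 ng of total RNA was amplified. How background and dye were handled, and which channel is the numerator, is not given in the sources used here. Signs were turned and values put on the log2 scale, as mutant over control. All arrays carried the mutant in Cy3, so a dye bias does not cancel, and testing ratios to 1 control RNA does not take in how controls vary. With no counts or intensities, the precision of a ratio could be judged only from its spread over the 3 arrays, as moderated by limma.

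The 636 features at the rim of the grid, none annotated, were left out. Features with 1 gene symbol (17329) were averaged per gene, and 4 features that pair a subunit with another symbol stayed apart from the members. All 38 members matched the RefSeq table of assembly Release 6 plus ISO1 MT by gene identifier. An intercept was fitted and moderated (lmFit, eBayes, 2-sided; limma 3.58.1 under R 4.3.3) for all 15415 features, with p-values adjusted over all of them by Benjamini-Hochberg and a threshold of 0.05. The test was run on simulated ratios drawn independently for each array. These leave out the shared control RNA and the fixed dye, so that check does not cover either. Members and lists were chosen with earlier results of these data known. Values were given for all called members, all paralogs and their parents, the extremes of each class, the proteolytic subunits, called pathway genes and, in lists with none, the one of smallest p. Other genes named were chosen after their values were seen. Alternatives were other ways to combine features, centring, scaling, a robust prior, array weights, exact zeros as missing, a threshold of 0.01, and leaving out each array; counts of signs without each array were added after seeing the data.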

Additional observations from a re-analysis of the deposited data

How the results depend on the processing

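No paired analysis was possible because all 3 arrays belong to 1 group and share 1 control. At an adjusted p under 0.01, limma called 0 core, 0 base and 0 lid genes, 0 paralogs, 0 pathway genes and 0 features, since the lowest adjusted p in the table was 0.0123. Without any 1 array the counts were likewise 0 to 0 for each of these, while an unadjusted p under 0.05 was found for 4710, 3277 and 4304 features when array 1, 2 or 3 was left out. With array weights, 8 core, 6 base and 5 lid genes were higher, 3 paralogs lower, and 10 pathway genes higher and 5 lower, in a table of 2869 higher and 2935 lower features. When each gene was read from its feature of smallest SD, 3 core, 4 base and 3 lid genes and 6 pathway genes were higher, and 1 core gene (Prosbeta5) and 2 paralogs lower, among 1660 higher and 1758 lower features. That choice favours features of small spread by its construction, and it reversed Prosbeta2R2 to -0.41. With each feature tested on its own, without averaging per gene, 1 core, 3 base and 3 lid genes were higher. In that setting 1 core gene and 2 paralogs were lower, and 5 pathway genes were higher and 4 lower. These stood among 1730 higher and 1608 lower single features. Prosbeta5 and Prosbeta2R2 were called lower from 1 feature each, while their other features had means of 0.07 and 0.50. A robust prior left 0 lid genes higher and 1 pathway gene lower. Scaled arrays gave 5 pathway genes higher and 1 lower. The 5 called members stayed called with centred arrays, scaled arrays, array weights, exact zeros as missing and the feature of smallest SD, and 4 of them with a robust prior. The median of canonical genes lay between 0.20 and 0.32 over 7 alternatives, that of paralogs between -0.10 and 0.00, and 10 to 12 pairs had the paralog lower. Where no cause is named, the cause was not tested.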
